A study of Homo sapiens with 12 samples.

Results

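Cells given siRNAs against CENPF and FOXM1 together (siCENPF+siFOXM1) were set against cells given a negative-control siRNA (siNeg), with libraries paired by the replicate number in the labels. This comparison sets 3 libraries given both siRNAs against 3 given siNeg, of 12 in the series, and covers all 14857 genes that passed a filter on low values. The spread behind its SE and p-values was estimated from all 12 libraries. The cells were hTERT-RPE1, a line derived from human retinal pigment epithelium and immortalized with telomerase. All groups came from parental cells, received 20 nM of siRNA overnight and were collected after 48 hours. The genotype label is Double KD for cells given both siRNAs and WT for siNeg. The remaining 6 libraries received siCENPF alone (genotype label CENP-F KD) or siFOXM1 alone (FOXM1 KD), 3 each. The labels give neither the siRNA sequences nor whether 20 nM in the combined treatment stands for each siRNA or for their sum.

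CENPF encodes a large coiled-coil protein that accumulates in G2 and joins the outermost layer of the kinetochore, where it binds microtubules and dynein regulators. FOXM1 encodes a forkhead transcription factor that, with the MuvB complex and B-Myb, drives transcription of genes needed in G2 and mitosis. The products of those genes include the mitotic cyclins, mitotic kinases and kinesins, and many of them carry a short CHR element beside CCAAT boxes in their promoters. An siRNA guides cleavage of a matching transcript, and its seed can also pair with the 3' UTRs of other transcripts in the manner of a miRNA.

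Values are normalized counts deposited by the authors, a signal on a count scale. Fold changes are on the log2(normalized count + 1) scale, which understates changes of genes with low values, with their standard error (SE). A gene is said to rise, fall or be called when its Benjamini-Hochberg adjusted p over all genes was below 0.05 in limma with the replicate number as a block. Nothing in the labels ties a replicate to a culture of its own, so p-values speak only to the spread among these libraries, which may be technical. In bulk RNA, fewer cells of a type and less RNA per cell cannot be told apart.

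Reads counted in genes numbered 15112858 to 17018969 in the libraries given both siRNAs and 13681255 to 35411230 in siNeg. Mitochondrially encoded transcripts made up 2.05% to 2.93% of reads over all 12 libraries. The libraries numbered 1 stood apart in interferon-stimulated genes in every group. IFIT1, an interferon-induced antiviral RNA-binding protein, stood at 3471, 211 and 110 with both siRNAs, in libraries 1 to 3, and at 7430, 243 and 349 in siNeg. Without any library numbered 1, 539 genes were called in the comparison of both siRNAs with siNeg, where 1174 were called with all. Markers of differentiated retinal pigment epithelium were mostly near 0, and their summed level was 32.5 to 44.1 FPKM with both siRNAs and 32.6 to 48.7 FPKM in siNeg. RPE65 and TYR, enzymes of the visual cycle and of melanin synthesis, stood at 0 FPKM, and of 14 markers only BEST1 and MITF reached 1 FPKM. BEST1 shares 5798 bases with FTH1, an abundant ferritin gene on the opposite strand, so its reads are uncertain. Summed markers of other cell types had overlapping ranges in both groups, at 13.4 to 15.9 FPKM with both siRNAs and 13.8 to 16.6 FPKM in siNeg for keratinocytes and carcinoma (KRT5, KRT1 and CDH1 at 0). Most of that sum was KRT10, at 12.3 to 14.3 FPKM with both siRNAs and 11.4 to 13.9 FPKM in siNeg. KRT14 stood at 0.961 to 1.73 FPKM with both siRNAs and 1.17 to 2.69 FPKM in siNeg. Summed markers of blood and endothelium were 0.0517 to 0.146 FPKM with both siRNAs and 0.0716 to 0.147 FPKM in siNeg (CD3E, HBB, HBA1 and CDH5 among those at 0). For neural cells they were 2.22 to 2.45 FPKM with both siRNAs and 2.28 to 2.71 FPKM in siNeg (NEFM at 0). Of these, TUBB3 stood at 0.788 to 1.16 FPKM with both siRNAs and 0.888 to 1.51 FPKM in siNeg. MAP2 stood at 1.14 to 1.40 FPKM with both siRNAs and 1.13 to 1.32 FPKM in siNeg.

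Both targeted transcripts fell, CENPF by 84.2% and FOXM1 by 82.3% of their siNeg means. CENPF (ENSG00000117724, hg38 chromosome 1, 214603195 to 214664588, plus strand) stood at 1360, 1360 and 1284 with both siRNAs, in libraries 1 to 3, against 7797, 9537 and 7993 in siNeg. The groups were far apart, with means of 1335 ± 44.1 with both siRNAs and 8442 ± 953 in siNeg (SD, n = 3 each). The fall left 15.8% of the siNeg level (log2 fold change -2.65, SE 0.07, limma adjusted p = 1.08e-14). FOXM1 (ENSG00000111206), which lies on chromosome 12 from 2857681 to 2877040 on the minus strand, had 729, 816 and 822 with both siRNAs, against 4186, 4438 and 4763 in siNeg. It fell to 17.7% of the siNeg level (log2 fold change -2.50, SE 0.13, limma adjusted p = 3.95e-06), again with no overlap. CENPF was depleted less with both siRNAs than with siCENPF alone, where it averaged 912 (log2 difference 0.55, SE 0.07, limma adjusted p = 0.000188). FOXM1 averaged 789 with both siRNAs and 680 with siFOXM1 alone, a log2 difference of 0.25 (SE 0.13) that did not pass (limma adjusted p = 0.724).

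Sequence words found in the genes described further on are shown first, because they differed in frequency between genes that rose and genes that fell. Short words of 7 bases were looked for in annotated 3' UTRs (GENCODE 29, GRCh38), on the transcript's strand, and are in capitals in these windows of 29 bases. The words were chosen with these data known. The first 4 windows hold AGCAACC and come from genes that rose, the next 3 hold GTGTTTA and the last 2 AGCGCTA, all from genes that fell. Their positions are chr1:85321220-85321248, chr11:126263817-126263845, chr2:112830013-112830041, chr3:198038834-198038862, chr5:172689175-172689203, chr3:63834059-63834087, chr2:86773726-86773754, chr6:108042954-108042982 and chr10:100548206-100548234 in the order printed. DDAH1, SRPR, IL1B, THOC7 and OSTM1 lie on the minus strand and the others on the plus strand.
DDAH1: taaatgaattaAGCAACCtagaagataca
SRPR: tagagtatgtgAGCAACCtgtcttcagtg
IL1B: acattctgatgAGCAACCgcttccctatt
LMLN: ctgtcctcatcAGCAACCcaaccaccttc
NEURL1B: gaggtaaggaaGTGTTTAtcttctaaaaa
THOC7: atgaccataatGTGTTTAaaatgtggtat
RMND5A: ctccccgccatGTGTTTAatattcctcct
OSTM1: gataagtattaAGCGCTAccctaaagtgt
HIF1AN: aggagactccaAGCGCTAgtattgcacgc

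Promoters of falling mitotic genes are shown for the CHR element, searched as TTTGAA or TTTAAA on both strands in the 250 bases before each RefSeq start (GRCh38.p14). The element is in capitals, and the CDKN3 window has it on the reverse strand. Positions are chr5:69167108-69167137, chr5:138179059-138179088, chr16:2429350-2429379, chr15:59105105-59105134, chr2:26786026-26786055 and chr14:54396825-54396854 in the order printed, all on the plus strand.
CCNB1: agcagtgcggggTTTAAAtctgaggctagg
KIF20A: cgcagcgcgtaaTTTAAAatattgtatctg
CCNF: gggccgggtgcgTTTGAAaactggggtggg
CCNB2: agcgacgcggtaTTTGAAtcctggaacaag
CENPA: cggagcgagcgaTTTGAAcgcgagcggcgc
CDKN3: tcccgcgcgtctTTCAAAggtcttctagga

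The comparison asks what differed between cells given both siRNAs and cells given siNeg. Effects of siNeg itself were not tested, as siNeg was the only control. With both siRNAs 1174 of 14857 genes were called (7.90%), of which 621 rose (4.18%) and 553 fell (3.72%). Changes were mostly small: the median was 0.33 on the log2 scale for rising genes and -0.31 for falling genes, and 30 genes, the 2 targets included, reached 1 in either direction. Of the rising genes 618, and of the falling genes 550, moved in the same direction in all 3 pairs of libraries, as 41.5% of all genes tested did in either direction. The 6 libraries did not overlap for 346 of the rising and 313 of the falling genes, whereas 12.9% of all genes tested were without overlap. The calls rest on the pairing: without the block 68 genes passed (0.458%), 34 higher and 34 lower, all among the 1174. Leaving out any of the 6 libraries left between 667 and 1104 calls; without siCENPF+siFOXM1 library 1, 2 or 3 they numbered 721, 734 and 667, and without siNeg library 1 or 3 they numbered 785 and 780. edgeR's quasi-likelihood test on reads recovered from CPM, also with the block, called 1250 of 14150 genes (8.83%), among them 606 of the 615 rising and 551 of the 553 falling genes it could test. A limma fit to only the 6 libraries of this comparison, with the block, called 551 of the 621 rising and 490 of the 553 falling genes in the same direction. The authors' deposited table lists 80 genes with adjusted p below 0.05, and all 80 were called here in the same direction.

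**Figure D1:**
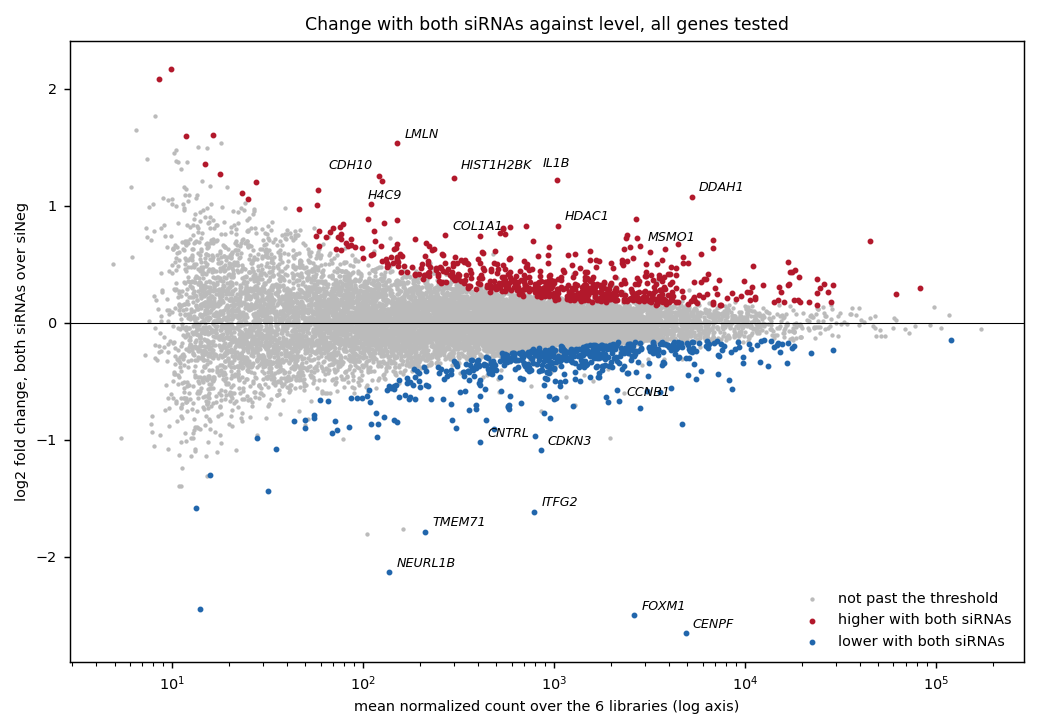
Log2 fold change of both siRNAs over siNeg (y axis) against the mean normalized count over the 6 libraries (x axis, log scale), 1 point per gene tested; 621 red genes were higher and 553 blue genes lower with both siRNAs, and gray genes did not pass. CENPF and FOXM1 stand lowest among genes of high level, and few other genes of high level lie beyond 1 in either direction.

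Apart from the targets, the falling genes of largest change with a mean of at least 100 normalized counts were NEURL1B, TMEM71 and ITFG2. NEURL1B (chromosome 5, 172641266 to 172691540), an E3 ubiquitin ligase that acts on Notch ligands, stood at 37.2, 78.9 and 40.4 with both siRNAs against 174, 272 and 220 in siNeg. Every library given both siRNAs was below every siNeg library (log2 fold change -2.13, SE 0.19, limma adjusted p = 2.10e-08). TMEM71, a transmembrane protein gene, stood at 66.6, 134 and 90.6 with both siRNAs against 288, 353 and 334 in siNeg, again without overlap (log2 fold change -1.79, SE 0.15, limma adjusted p = 1.57e-08). ITFG2 (chromosome 12, 2812622 to 2859791), which encodes a subunit of the KICSTOR complex of the mTORC1 pathway, stood at 396, 437 and 335 with both siRNAs against 1062, 1223 and 1290 in siNeg. It fell by 1.62 on the log2 scale (SE 0.10, limma adjusted p = 1.54e-10), but it shares 2111 bases with FOXM1 on the opposite strand. No source used here states whether strand was used in counting, so reads of ITFG2 and FOXM1 cannot be told apart there. The same limit applies to other named genes whose spans share bases with a tested gene on the opposite strand: NEURL1B (1087 bases) and DPH1 (526) among those that fell, and TMEM106A (3101), C1QTNF6 (2684), LMLN (914) and SRPR (90 and 68, with different genes) among those that rose.

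Other named falling genes act in RNA handling and at the centrosome. THOC7 (chromosome 3, 63833870 to 63863903), a subunit of the THO complex that couples transcription to mRNA export, stood at 563, 509 and 533 with both siRNAs against 1039, 950 and 1161 in siNeg (log2 fold change -0.97, SE 0.09, limma adjusted p = 3.58e-08). KHSRP (chromosome 19, 6413348 to 6424794), which binds AU-rich elements and promotes mRNA decay, stood at 3397, 3149 and 3412 with both siRNAs against 6097, 5633 and 6452 in siNeg. Its groups were narrow and apart, with a log2 fold change of -0.87 (SE 0.05, limma adjusted p = 3.20e-11). CNTRL (chromosome 9, 121074863 to 121177610), centriolin of the mother centriole, stood at 237, 308 and 267 with both siRNAs against 480, 626 and 547 in siNeg, a fall of 1.02 on the log2 scale (SE 0.09, limma adjusted p = 3.05e-08). The groups did not overlap for any of these 3 genes. Among the other lists' members, CNTRL was the only called gene of 17 centriole genes, and THOC7 and ALYREF were the only called genes of 11 mRNA export genes. In either direction 7.90% of all genes tested were called.

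SMIM13, a small membrane protein gene, stood at 315, 302 and 395 with both siRNAs against 704, 510 and 692 in siNeg (log2 fold change -0.91, SE 0.10, limma adjusted p = 1.18e-06). SOX11 (chromosome 2, 5692667 to 5701385), an HMG-box transcription factor of neural development, stood at 343, 260 and 353 with both siRNAs against 527, 552 and 617 in siNeg. It too was without overlap (log2 fold change -0.84, SE 0.10, limma adjusted p = 3.24e-06). DPH1 (chromosome 17, 2030110 to 2043430), an enzyme of diphthamide synthesis on elongation factor 2, stood at 91.1, 118 and 115 with both siRNAs against 176, 218 and 191 in siNeg (log2 fold change -0.85, SE 0.15, limma adjusted p = 0.000620). MYH11 (chromosome 16, 15703135 to 15857033), smooth muscle myosin heavy chain, stood at 68.0, 106.4 and 83.4 with both siRNAs against 153, 163 and 148 in siNeg. Its fall of 0.87 on the log2 scale (SE 0.15, limma adjusted p = 0.000460) is uncertain, because it shares 23219 bases with NDE1 on the opposite strand, which also fell. FAM110A fell by 0.83 on the log2 scale (SE 0.15, limma adjusted p = 0.000531).

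**Figure D2:**
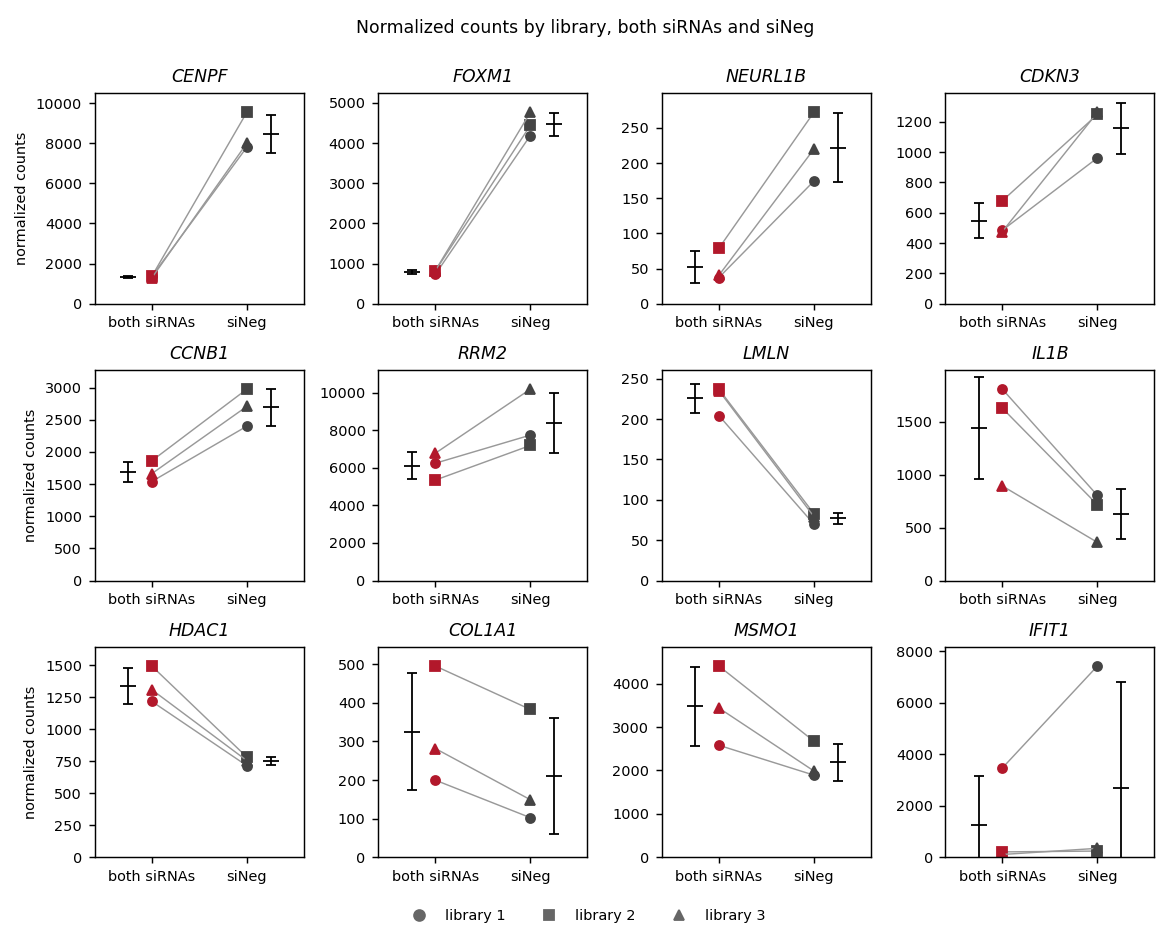
Normalized counts of 12 genes in each library given both siRNAs (red, left in each panel) and siNeg (gray, right); symbols mark library numbers, lines join libraries of the same number, and bars give mean ± SD (n = 3), cut at 0 where they reach below it. CENPF, FOXM1, NEURL1B, CDKN3, CCNB1 and RRM2 were lower with both siRNAs in all 3 pairs, LMLN, IL1B, HDAC1, COL1A1 and MSMO1 were higher in all 3, and IFIT1 was set apart by library 1 in both groups.

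Of 26 textbook FOXM1 targets, genes of G2 and mitosis, 9 fell (3.72% of all genes tested did) and none rose (median log2 fold change -0.10, against -0.00 over all genes). CDKN3 (chromosome 14, 54396849 to 54420218), a phosphatase that dephosphorylates CDK1 and CDK2, stood at 485, 679 and 476 with both siRNAs against 962, 1249 and 1262 in siNeg (log2 fold change -1.09, SE 0.09, limma adjusted p = 6.06e-09). NEK2, a kinase of centrosome separation, stood at 541, 830 and 710 with both siRNAs against 1072, 1420 and 1145 in siNeg (log2 fold change -0.82, SE 0.08, limma adjusted p = 4.88e-08). KIF20A, a kinesin of the central spindle, stood at 1864, 2181 and 2284 with both siRNAs against 2842, 4245 and 3511 in siNeg (log2 fold change -0.73, SE 0.07, limma adjusted p = 4.05e-08). For CDKN3, NEK2 and KIF20A no library given both siRNAs reached any siNeg library. CCNB1, cyclin B1 and the partner of CDK1 at mitotic entry, stood at 1539, 1861 and 1661 with both siRNAs against 2399, 2975 and 2706 in siNeg (log2 fold change -0.67, SE 0.06, limma adjusted p = 1.21e-08). CCNF, an F-box cyclin, stood at 808, 769 and 761 with both siRNAs against 1190, 1225 and 1260 in siNeg (log2 fold change -0.65, SE 0.07, limma adjusted p = 5.88e-07). CCNA2, cyclin A2, stood at 2251, 2617 and 2541 with both siRNAs against 3407, 3944 and 3719 in siNeg (log2 fold change -0.58, SE 0.05, limma adjusted p = 2.27e-08). These groups did not overlap either.

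The other 3 falling targets were CDC25B, CENPA and CCNB2. CDC25B, a phosphatase that activates CDK1, fell by 0.43 on the log2 scale (SE 0.06, limma adjusted p = 9.79e-06). CENPA, the histone H3 variant of centromeres, stood at 266, 406 and 295 with both siRNAs against 369, 513 and 439 in siNeg, groups that overlap. Within pairs it was lower each time (log2 fold change -0.46, SE 0.09, limma adjusted p = 0.00222), and without the block its adjusted p was 0.757. CCNB2, cyclin B2, also fell with overlapping libraries (log2 fold change -0.26, SE 0.06, limma adjusted p = 0.00549). Between 8 and 9 of the 26 targets were called lower with each of the 6 libraries left out in turn, and 5 without the block.

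Over the mitosis lists, which hold cyclins, kinases, kinesins, spindle and cytokinesis genes, the FOXM1 targets and others, 2 of 100 genes rose and 18 fell. The shares over all genes tested were 4.18% and 3.72%. Of 13 mitotic cyclins and CDK1 regulators 6 fell, all named already. CKS2, a small CDK-binding subunit, rose by 0.27 on the log2 scale (SE 0.07, limma adjusted p = 0.0161). Of 12 mitotic kinases and cofactors, NEK2 and BORA fell and TTK rose. BORA, the activator of Aurora A, stood at 261, 339 and 230 with both siRNAs against 433, 441 and 359 in siNeg (log2 fold change -0.58, SE 0.11, limma adjusted p = 0.00112). TTK, the kinase that starts spindle checkpoint signalling, went the other way, with 1408, 2044 and 1508 with both siRNAs against 1081, 1386 and 1283 in siNeg (log2 fold change 0.39, SE 0.06, limma adjusted p = 0.000162). TTK was also the only called gene of 9 spindle checkpoint genes. Of 13 mitotic kinesins, KIF20A, KIF2C and KIF14 fell, KIF2C by 0.30 and KIF14 by 0.20 on the log2 scale (limma adjusted p = 0.000480 and 0.0427).

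Of 16 spindle and cytokinesis genes 3 fell and none rose. CKAP2, a microtubule-associated protein of the spindle, stood at 2967, 3799 and 3259 with both siRNAs against 4342, 5399 and 4990 in siNeg (log2 fold change -0.56, SE 0.05, limma adjusted p = 2.78e-08). ASPM, a spindle pole protein, stood at 3890, 5282 and 4785 with both siRNAs against 5685, 7498 and 6229 in siNeg (log2 fold change -0.48, SE 0.06, limma adjusted p = 1.90e-05). CEP55, which recruits the abscission machinery to the midbody, stood at 4060, 4433 and 4267 with both siRNAs against 5376, 5879 and 6104 in siNeg (log2 fold change -0.44, SE 0.05, limma adjusted p = 6.82e-07). All 3 were without overlap. No call was made among 19 subunits and regulators of the anaphase-promoting complex, 8 condensin genes and 7 genes of the chromosomal passenger complex and shugoshins. At an unadjusted limma p below 0.05 these lists held 3, 2 and 0 genes, and edgeR called 0 in the passenger list. Without the block 6 of the 100 mitotic genes passed, all lower, as 0.229% of all genes were.

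Most centromere and kinetochore genes did not pass: over these lists 1 of 68 rose and 6 fell (4.18% and 3.72% of all genes tested). The largest change was in NDE1, which encodes a dynein regulator that binds CENP-F in the corona. It stood at 423, 437 and 443 with both siRNAs against 670, 795 and 713 in siNeg (log2 fold change -0.74, SE 0.08, limma adjusted p = 4.19e-07), with the overlap with MYH11 given above. It was also the only kinetochore gene to pass without the block (limma adjusted p = 0.00203). CENPA was the only call among 11 genes of centromere chromatin and CENP-A loading. CENPU, of the inner kinetochore CENP-OPQUR complex, stood at 1455, 1640 and 1442 with both siRNAs against 1666, 1922 and 2015 in siNeg (log2 fold change -0.30, SE 0.06, limma adjusted p = 0.00236). NUF2 of the NDC80 complex fell by 0.34 and DSN1 of the MIS12 complex by 0.30 on the log2 scale (SE 0.06 and 0.09, limma adjusted p = 0.000525 and 0.0404), the only calls of 13 outer kinetochore genes. Of 15 cohesin genes 3 fell, and RAD21, the kleisin subunit, changed most, at 4732, 5528 and 4860 with both siRNAs against 5711, 7678 and 6886 in siNeg (log2 fold change -0.42, SE 0.05, limma adjusted p = 3.66e-06). Only 1 cohesin gene was called lower without siCENPF+siFOXM1 library 1 or 2 or without siNeg library 2, and 2 without siCENPF+siFOXM1 library 3 or siNeg library 3. Of 13 MuvB, B-Myb and DREAM genes, E2F4 and RBL2, a repressor E2F and a pocket protein, rose by 0.22 and 0.28 on the log2 scale (limma adjusted p = 0.0281 and 0.0370), and neither was called without siCENPF+siFOXM1 library 1 or 3 or siNeg library 1 or 3.

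CHR elements were frequent among the mitotic and kinetochore genes that fell. Of 10533 promoters matched, 14.5% held the element, and of the 19 matched mitotic and kinetochore genes that fell 52.6% did. Of the 80 such genes that were not called 37.5% held it. CCAAT boxes (CCAAT) were searched on both strands in the same window. They stood in 68.4% of these 19 falling genes, in 57.5% of the 80 not called and in 35.2% of all promoters. Of the 30 matched G1/S and S phase genes that fell 63.3% held a CCAAT box, so its frequency was not particular to mitotic and kinetochore genes. Of all 444 matched genes called lower 18.02% held the CHR element and 40.3% a CCAAT box. Of the 473 matched genes called higher 15.01% and 37.8% did. These are descriptions of letters in a window, and binding was not measured.

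Many genes of G1/S and S phase fell by small amounts. Of 75 such genes 35 fell (3.72% of all genes tested did), none rose and 70 had a log2 fold change below 0, with a median of -0.21. None of these 75 passed without the block, and 21 were called lower on the FPKM table (1.93% of all genes). Libraries did not overlap for 11 of the 35, against 313 of all 553 falling genes and 12.9% of all genes tested. With single libraries left out, 29, 23 and 21 were called lower without siCENPF+siFOXM1 library 1, 2 or 3, and 27, 37 and 24 without siNeg library 1, 2 or 3. Of 16 G1/S cyclins, CDKs and E2F factors 5, 3 and 2 were higher with both siRNAs in pairs 1 to 3. Of 16 origin licensing genes 2, 4 and 1 were. Most values within pairs were lower with both siRNAs while the levels of the 3 pairs differed. An example is RRM2, the small subunit of ribonucleotide reductase, at 6251, 5353 and 6784 with both siRNAs against 7751, 7198 and 10198 in siNeg (log2 fold change -0.44, SE 0.05, limma adjusted p = 1.91e-06).

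Of 16 origin licensing genes 10 fell, among them 6 subunits of the MCM helicase. MCM6 stood at 1385, 1419 and 1790 with both siRNAs against 1819, 1823 and 2449 in siNeg (log2 fold change -0.40, SE 0.05, limma adjusted p = 1.59e-05). MCM3 stood at 2583, 2512 and 3208 with both siRNAs against 3195, 3277 and 4105 in siNeg (log2 fold change -0.35, SE 0.05, limma adjusted p = 3.84e-05). Groups did not overlap for MCM6 and overlapped slightly for MCM3. ORC1, the large subunit of the origin recognition complex, stood at 338, 235 and 407 with both siRNAs against 541, 412 and 535 in siNeg (log2 fold change -0.63, SE 0.10, limma adjusted p = 7.07e-05). CDT1, which loads MCM, stood at 944, 663 and 979 with both siRNAs against 1220, 877 and 1318 in siNeg (log2 fold change -0.40, SE 0.07, limma adjusted p = 0.000180). MCM2, MCM4, MCM5, MCM7, MCM10 and CDC6 fell by 0.19 to 0.38 on the log2 scale, all with overlapping libraries.

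Of 34 replication fork and S phase repair genes 13 fell, and all 34 had a log2 fold change below 0 (median -0.22). CLSPN, claspin of the ATR checkpoint, stood at 948, 765 and 937 with both siRNAs against 1239, 1015 and 1539 in siNeg (log2 fold change -0.50, SE 0.07, limma adjusted p = 2.15e-05). GINS2, of the replicative helicase, stood at 550, 502 and 672 with both siRNAs against 718, 670 and 1042 in siNeg (log2 fold change -0.48, SE 0.08, limma adjusted p = 0.000291). FEN1, the flap endonuclease of lagging strands, stood at 1986, 1778 and 2120 with both siRNAs against 2377, 2373 and 3040 in siNeg (log2 fold change -0.40, SE 0.06, limma adjusted p = 4.41e-05). CLSPN and FEN1 were without overlap, and siNeg library 3 was the highest of the 6 for all 3 genes. Of these 34 genes 10, 6 and 5 were called lower without siCENPF+siFOXM1 library 1, 2 or 3, and 9, 14 and 7 without siNeg library 1, 2 or 3; 4 were called each time. RRM2, RRM1, TYMS and DCTPP1 made up the 4 falling genes of 9 in nucleotide supply; leaving out siCENPF+siFOXM1 library 2 or 3 or siNeg library 1 or 3 left 1.

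Of 16 G1/S cyclins, CDKs and E2F factors 8 fell. E2F2, an activator E2F, stood at 126, 113 and 176 with both siRNAs against 185, 192 and 266 in siNeg (log2 fold change -0.64, SE 0.14, limma adjusted p = 0.00366). E2F1, which drives S phase genes, stood at 839, 722 and 910 with both siRNAs against 1062, 891 and 1312 in siNeg (log2 fold change -0.39, SE 0.07, limma adjusted p = 0.000927). CCND1, cyclin D1, stood at 23869, 17431 and 19607 with both siRNAs against 28693, 21244 and 22937 in siNeg (log2 fold change -0.26, SE 0.05, limma adjusted p = 0.000454). E2F2 was without overlap, while E2F1 and CCND1 overlapped. CCNE2 (cyclin E2), CDKN2C (an inhibitor of CDK4 and CDK6), E2F7 (a repressor E2F), CDK6 and CCND3 fell by 0.21 to 0.39 on the log2 scale. Without siCENPF+siFOXM1 library 1, 5 of the 16 were called lower.

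**Figure D3:**
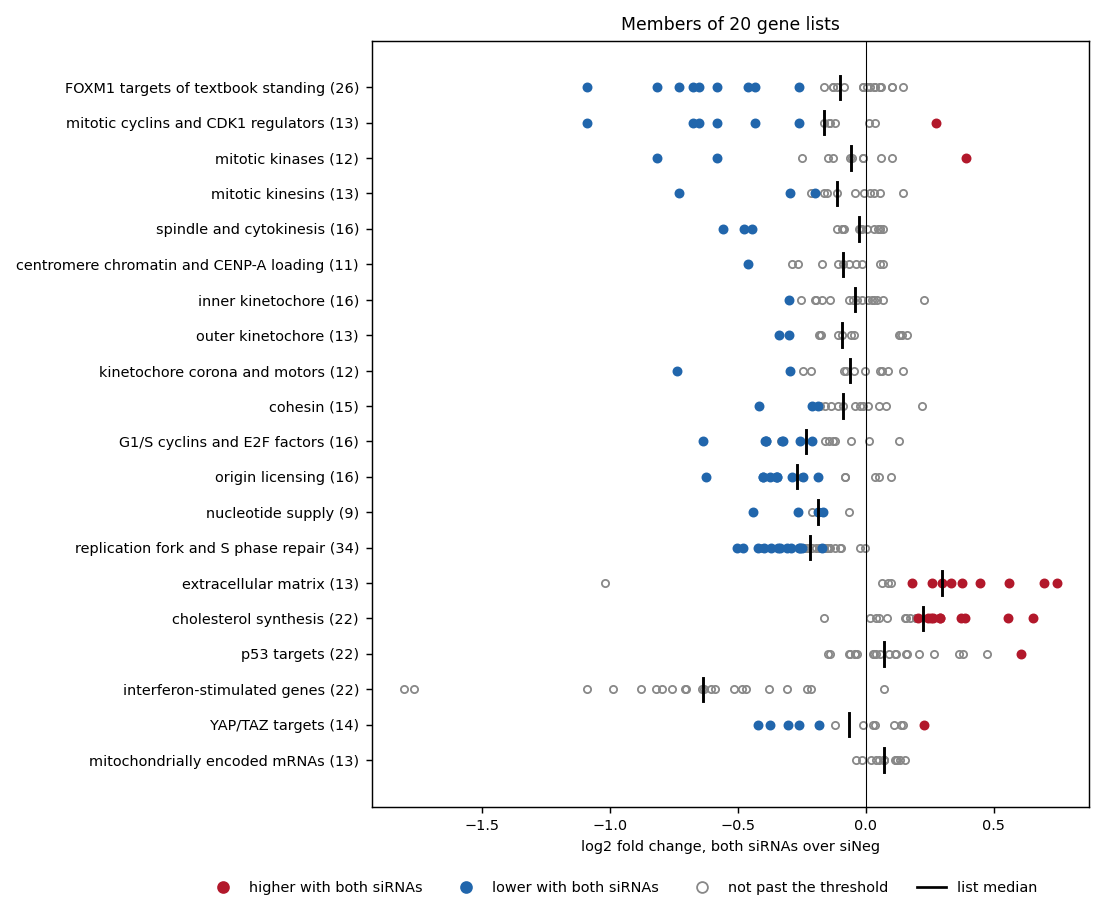
Log2 fold change of both siRNAs over siNeg (x axis) for the members of 20 gene lists, 1 point per gene, with the number of measured members in brackets, filled points past the threshold and a bar at each list's median. The 4 lists of G1/S and S phase lie almost wholly below 0 with medians of -0.19 to -0.27, and extracellular matrix and cholesterol synthesis lie mostly above 0 with medians of 0.30 and 0.22.

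The rising named genes were LMLN, CDH10, HIST1H2BK, IL1B, H4C9 and DDAH1, each above 1 on the log2 scale, and 9 others. LMLN (chromosome 3, 197960200 to 198043720), a zinc metallopeptidase related to leishmanolysin, stood at 204, 237 and 235 with both siRNAs against 69.8, 82.9 and 79.3 in siNeg. It was the named gene that rose most (log2 fold change 1.53, SE 0.15, limma adjusted p = 5.75e-08). CDH10 (chromosome 5, 24487100 to 24644978), a type II cadherin, stood at 162, 219 and 138 with both siRNAs against 66.9, 68.7 and 77.5 in siNeg (log2 fold change 1.25, SE 0.16, limma adjusted p = 5.40e-06). DDAH1 (chromosome 1, 85318481 to 85578363), which degrades the nitric oxide synthase inhibitor asymmetric dimethylarginine, stood at 7428, 6518 and 7387 with both siRNAs against 3898, 2786 and 3524 in siNeg. It had the smallest adjusted p of the named rising genes (log2 fold change 1.07, SE 0.06, limma adjusted p = 1.97e-12). The rule that named these 15 rising genes and the falling genes above asks for groups that do not overlap and for a mean of at least 100 normalized counts, so both hold for them by choice. It was not asked of members of gene lists.

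IL1B (chromosome 2, 112829751 to 112836903), the cytokine interleukin-1 beta, stood at 1809, 1629 and 894 with both siRNAs against 805, 717 and 361 in siNeg. Library 3 was the lowest in both groups and the ratio was similar in each pair (log2 fold change 1.22, SE 0.08, limma adjusted p = 3.71e-10; 0.605 without the block). HIST1H2BK (current symbol H2BC12), a histone H2B gene, stood at 400, 448 and 400 with both siRNAs against 236, 144 and 161 in siNeg (log2 fold change 1.23, SE 0.13, limma adjusted p = 3.43e-07). H4C9, a histone H4 gene, stood at 185, 179 and 160 with both siRNAs against 103, 53.1 and 76.7 in siNeg (log2 fold change 1.21, SE 0.17, limma adjusted p = 2.28e-05). Both belong to histone multigene families whose near-identical copies can split reads, so these values are uncertain.

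SRPR (current symbol SRPRA; chromosome 11, 126262919 to 126269144), the receptor subunit that docks the signal recognition particle, stood at 3710, 3166 and 3597 with both siRNAs against 2101, 1607 and 1975 in siNeg (log2 fold change 0.89, SE 0.05, limma adjusted p = 1.58e-11). HDAC1 (chromosome 1, 32292086 to 32333635), a class I histone deacetylase, stood at 1216, 1492 and 1308 with both siRNAs against 715, 782 and 755 in siNeg (log2 fold change 0.83, SE 0.06, limma adjusted p = 1.95e-09). Of 11 histone deacetylases HDAC5 also rose, by 0.27 on the log2 scale, and HDAC4 fell by 0.41 (limma adjusted p = 0.0298 and 0.0278). Neither HDAC5 nor HDAC4 kept its call with every library left out in turn. Of all genes tested 4.18% rose and 3.72% fell. VWA9 (current symbol INTS14), a subunit of the Integrator complex, stood at 712, 741 and 807 with both siRNAs against 423, 402 and 453 in siNeg (log2 fold change 0.82, SE 0.07, limma adjusted p = 2.79e-08). EIF5A2, a translation factor, stood at 1139, 680 and 912 with both siRNAs against 586, 377 and 574 in siNeg (log2 fold change 0.82, SE 0.08, limma adjusted p = 6.24e-08; 0.566 without the block). C1QTNF6 (chromosome 22, 37180167 to 37199385), a secreted C1q and TNF related protein, stood at 156, 248 and 186 with both siRNAs against 96.8, 124 and 95.5 in siNeg (log2 fold change 0.88, SE 0.13, limma adjusted p = 7.16e-05; 0.119 without the block). MICB, a stress-induced ligand of the NKG2D receptor, stood at 815, 587 and 704 with both siRNAs against 446, 382 and 405 in siNeg (log2 fold change 0.76, SE 0.09, limma adjusted p = 4.08e-06; 0.0960 without the block). TMEM106A, FBXO33 and TMEM117, 2 membrane protein genes and an F-box protein gene, rose by 0.89, 0.80 and 0.79 on the log2 scale with the block (limma adjusted p = 0.00103, 6.05e-05 and 0.00153) and did not pass without it. All 28 named genes other than the targets kept their call with each of the 6 libraries left out in turn.

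Of 13 extracellular matrix genes 9 rose (4.18% of all genes tested did) and none fell (median log2 fold change 0.30). The 1 gene below 0 had a log2 fold change of -1.02, larger in size than any rise in the list. It reached an unadjusted limma p below 0.05 but was not called. COL4A1, a basement membrane collagen chain, stood at 5445, 5242 and 6180 with both siRNAs against 4261, 3529 and 3670 in siNeg (log2 fold change 0.56, SE 0.06, limma adjusted p = 5.42e-07). It was the only matrix gene to pass without the block. THBS1, the matricellular protein thrombospondin 1, stood at 52116, 60250 and 54647 with both siRNAs against 35499, 42110 and 27085 in siNeg (log2 fold change 0.69, SE 0.08, limma adjusted p = 0.000291). SPARC, which binds collagen, stood at 20612, 22221 and 20498 with both siRNAs against 16980, 16484 and 13266 in siNeg (log2 fold change 0.45, SE 0.05, limma adjusted p = 3.41e-06). The groups did not overlap for these 3. COL1A1, a fibrillar collagen chain, stood at 200, 495 and 282 with both siRNAs against 103, 383 and 149 in siNeg, with library 2 the highest in both groups (log2 fold change 0.75, SE 0.13, limma adjusted p = 0.000390). TGFBI, FBN1, FN1, LAMC1 and LAMB1 rose by 0.18 to 0.37 on the log2 scale. With each library left out, 6 to 9 of the 13 were called higher.

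Of 22 cholesterol synthesis genes 10 rose (4.18% of all genes tested did), none fell and 21 were above 0 (median log2 fold change 0.22). MSMO1, a sterol methyl oxidase, stood at 2580, 4405 and 3439 with both siRNAs against 1893, 2675 and 1989 in siNeg, groups that overlap at 1 pair of values. Within pairs it rose each time (log2 fold change 0.65, SE 0.07, limma adjusted p = 2.23e-06). HMGCS1, which makes HMG-CoA, stood at 1905, 4139 and 3235 with both siRNAs against 1544, 2913 and 1784 in siNeg (log2 fold change 0.56, SE 0.12, limma adjusted p = 0.0245). DHCR7 and SQLE, enzymes of late and early sterol formation, rose by 0.39 and 0.37 on the log2 scale (SE 0.06 each, limma adjusted p = 0.000196 and 0.000136). None of the 10 passed without the block, and 4 were called higher without siCENPF+siFOXM1 library 3, 6 without siCENPF+siFOXM1 library 1 or siNeg library 3.

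Stress and secretory genes moved in small numbers, which are to be read beside the 4.18% of all genes tested that rose and the 3.72% that fell. SESN2, a stress-induced regulator of mTORC1, stood at 699, 413 and 399 with both siRNAs against 471, 272 and 255 in siNeg, and was the only called gene of 22 p53 targets (log2 fold change 0.60, SE 0.09, limma adjusted p = 7.21e-05). DNAJB9, an endoplasmic reticulum co-chaperone, stood at 715, 401 and 434 with both siRNAs against 407, 226 and 289 in siNeg (log2 fold change 0.74, SE 0.10, limma adjusted p = 1.73e-05). For both genes library 1 was the highest in each group. Of 19 genes of the integrated stress and unfolded protein response 3 rose (DNAJB9, SESN2 and XBP1) and 2 fell (PSAT1 and PHGDH, enzymes of serine synthesis). Of 10 senescence-associated secretory genes IL1B, VEGFA and IGFBP7 rose, VEGFA by 0.50 on the log2 scale (SE 0.08, limma adjusted p = 0.000587). Among 13 genes of the BCL2 family BAK1, a pore-forming effector, stood at 344, 261 and 288 with both siRNAs against 549, 449 and 455 in siNeg (log2 fold change -0.70, SE 0.10, limma adjusted p = 4.42e-05). BCL2 and BCL2L2, which oppose cell death, had log2 fold changes of -0.40 and 0.28, both called. HIF1AN, the asparaginyl hydroxylase that restrains HIF-1 alpha, stood at 1775, 1687 and 1667 with both siRNAs against 2620, 2714 and 2318 in siNeg (log2 fold change -0.57, SE 0.06, limma adjusted p = 8.31e-08). LDHA and VEGFA rose among the 15 HIF pathway genes. Of 14 immediate early genes JUN and IER2 fell, by 0.22 and 0.29 on the log2 scale.

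Of 14 YAP/TAZ genes 5 fell and 1 rose, where 3.72% and 4.18% of all genes tested did. LATS2, a kinase that inhibits YAP, stood at 859, 666 and 822 with both siRNAs against 1231, 820 and 1119 in siNeg, overlapping (log2 fold change -0.42, SE 0.07, limma adjusted p = 0.000297). PTPN14, another negative regulator of YAP, stood at 4495, 4463 and 4726 with both siRNAs against 5683, 5736 and 5484 in siNeg, without overlap (log2 fold change -0.30, SE 0.06, limma adjusted p = 0.00194). AMOTL1 and AMOTL2, which hold YAP in the cytoplasm, and ANKRD1, a YAP target, fell by 0.26, 0.18 and 0.37 on the log2 scale. The tissue factor gene F3 rose by 0.23. Without siCENPF+siFOXM1 library 1, 3 YAP/TAZ genes were called lower. In the primary cilium list KIF3B rose and KIFAP3 fell, by 0.30 each on the log2 scale, both parts of the kinesin-2 motor, and the other 24 measured genes did not pass. These cilium counts are near the shares over all genes, so they set the list apart in neither direction.

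Interferon-stimulated genes stood highest in library 1 of both groups. Of 22 measured, 21 had a log2 fold change below 0 with both siRNAs (median -0.64) and none passed in limma; 1 reached an unadjusted p below 0.05, and edgeR called 2, OASL and HERC5. Their median normalized count was 829, 104 and 66.2 in libraries 1 to 3 given both siRNAs and 1491, 109 and 127 in siNeg. The median log2 difference within pairs was -0.95, -0.18 and -0.69. Mitochondrially encoded mRNAs gave no call among 13 (median log2 fold change 0.07; 3 at an unadjusted limma p below 0.05), and 7 measured pigment epithelium markers gave none either (1 at an unadjusted p below 0.05).

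Some calls with small changes rested on single libraries. Called with all libraries but not with at least 1 of the 6 left out were, among others, E2F4, RBL2, DSN1, SMC1A, SMC3, KIF14, RRM1, TYMS, DCTPP1, CDK6, BCL2, BCL2L2, IGFBP7, IER2, JUN, AMOTL1, F3, PHGDH, KIFAP3, ALYREF, HDAC4, HDAC5, ZNRD1-AS1 and KIAA1467. Their limma log2 fold changes kept their sign throughout. The other named genes called against siNeg, 81 in number, kept their call each time.

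Values with each siRNA alone were set beside those with both. All 3 are measured against the same siNeg libraries, so they are not independent. The named genes were chosen for siNeg libraries that do not overlap those given both siRNAs. The shares over all genes tested, which were not so chosen, are therefore not a like comparison. Of the 15 named rising genes, 14 were also called higher with siCENPF alone (2.86% of all genes tested) and all 15 with siFOXM1 alone (4.48%). LMLN had log2 fold changes of 1.53 with both siRNAs, 1.40 with siCENPF and 1.57 with siFOXM1. DDAH1 had 1.07 with both, 1.10 with siCENPF and 1.02 with siFOXM1, and HDAC1 had 0.83, 0.76 and 0.77 in that order. The exception was C1QTNF6, with 0.88 with both, 0.34 with siCENPF (limma adjusted p = 0.160) and 0.65 with siFOXM1. Its level with both siRNAs was above that with siCENPF alone (log2 difference 0.53, limma adjusted p = 0.0376).

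Of the 13 named falling genes, 12 were called lower with siFOXM1 alone (4.23% of all genes tested) and 3 with siCENPF alone (1.66%). NEURL1B had log2 fold changes of -2.13 with both siRNAs, -0.13 with siCENPF and -2.42 with siFOXM1. CDKN3 had -1.09, -0.11 and -1.33 in that order, THOC7 had -0.97, 0.05 and -1.21, and KHSRP had -0.87, -0.16 and -0.997. DPH1 showed the other pattern, with -0.85 with both, -1.10 with siCENPF and 0.08 with siFOXM1. SOX11 and SMIM13 were lower in all 3, SOX11 with -0.84, -1.05 and -0.45 and SMIM13 with -0.91, -0.59 and -1.04. HIF1AN, from the HIF list, had -0.57 with both, -0.75 with siCENPF and -0.10 with siFOXM1. Of the 75 G1/S and S phase genes 35 were called lower with both siRNAs (3.72% of all genes tested), 22 with siCENPF alone (1.66%) and 24 with siFOXM1 alone (4.23%). For the 22 cholesterol genes 1 rose with siCENPF and 13 with siFOXM1, and for the 13 matrix genes 5 and 7 did. Of all genes tested 2.86% rose with siCENPF and 4.48% with siFOXM1.

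**Figure D4:**
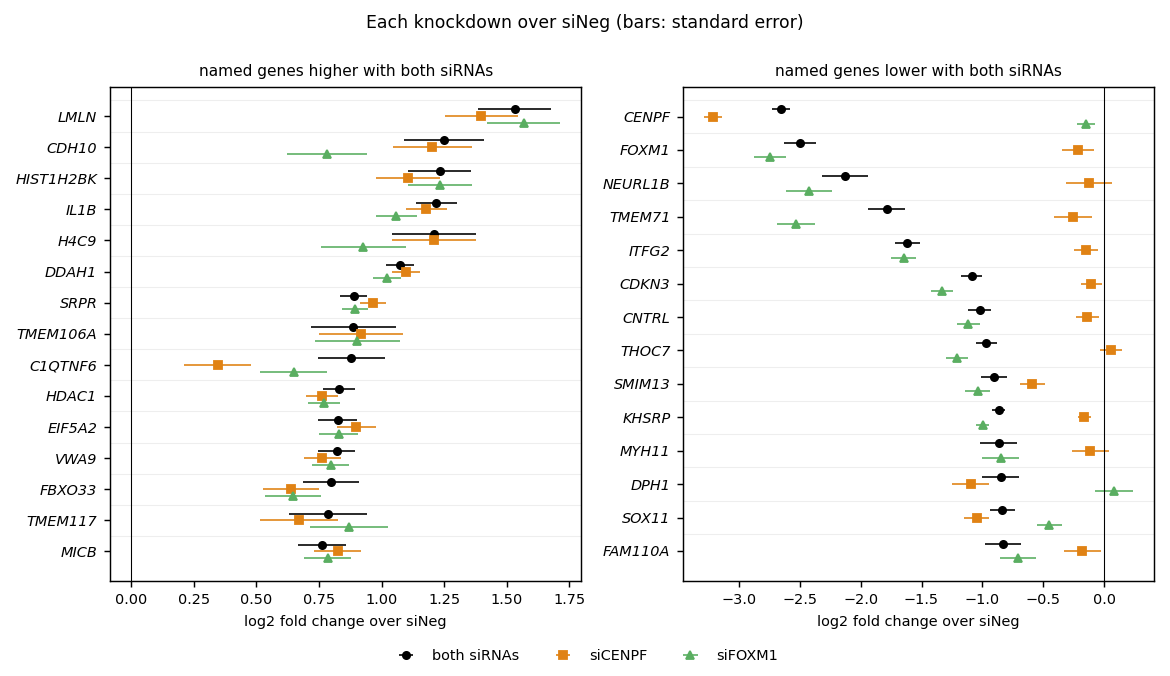
Log2 fold change over siNeg (x axis, bars give the standard error) of genes named in the text with both siRNAs (black), siCENPF (orange) and siFOXM1 (green), which share the siNeg libraries. The rising genes have similar values in all 3 except C1QTNF6 and CDH10, while most falling genes lie low with both siRNAs and siFOXM1 and near 0 with siCENPF, DPH1, SOX11 and SMIM13 excepted.

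Direct comparison of both siRNAs with siFOXM1 alone called 44 genes (0.296%), 20 higher and 24 lower. CENPF, which siFOXM1 does not target, was lowest. DPH1 was lower by 0.93 on the log2 scale (limma adjusted p = 0.00380), CDK6, a kinase of G1 progression, by 0.58, OSTM1, a lysosomal membrane protein, by 0.57 and RBM24, an RNA-binding splicing regulator, by 0.54. These genes had log2 fold changes of -1.10, -0.54, -0.87 and -0.68 with siCENPF alone against siNeg. Genes higher with both siRNAs than with siFOXM1 alone lay nearer to siNeg with both. CHIC1 had log2 fold changes over siNeg of -0.16 with both siRNAs and -0.65 with siFOXM1, PREPL had -0.20 and -0.60, and YOD1, a deubiquitinase, had -0.17 and -0.57. IGFBP3, which binds insulin-like growth factors, had -0.17 with both siRNAs and -0.62 with siFOXM1 over siNeg, a difference of 0.45 (limma adjusted p = 0.000209). TMEM71 was higher by 0.74 (limma adjusted p = 0.0288). None of the 15 named rising genes differed here in limma or edgeR (log2 differences of -0.08 to 0.47, SE 0.05 to 0.17, lowest limma adjusted p = 0.396), and 1 reached an unadjusted p below 0.05. Without the block 1 gene passed (0.00673%), edgeR called 42 (0.297%), and leaving out siCENPF+siFOXM1 library 1, 2 or 3 left 14, 12 and 20.

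Against siCENPF alone, both siRNAs called 217 genes (1.46%), 64 higher and 153 lower. FOXM1 (log2 difference -2.28), NEURL1B (-2.005), TMEM71 (-1.53), ITFG2 (-1.46) and THOC7 (-1.02) were lowest among the named genes. Of the 13 named falling genes 10 were lower here, as were 1.03% of all genes, and of the 15 rising genes only C1QTNF6 was called. Beside CENPF, the higher genes named by the same rule were DMBT1 by 0.60, a secreted scavenger receptor protein, ZNRD1-AS1 by 0.55, an antisense transcript whose reads are uncertain without strand, and G2E3 by 0.41, a ubiquitin ligase of G2. Without the block 12 genes passed (0.0808%), all lower, and leaving out siCENPF+siFOXM1 library 1, 2 or 3 left 104, 137 and 114.

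The interaction, the log2 change with both siRNAs minus the sum of the changes with each alone, was called for 125 genes (0.841%), 16 above 0 and 109 below (0.734%). All 15 named rising genes had an interaction below 0 (-1.43 to -0.12), and 9 of them were called. Their values with both siRNAs were close to those with either alone. For DDAH1 it was -1.05 (SE 0.08, limma adjusted p = 9.48e-09) and for SRPR -0.97 (SE 0.07, limma adjusted p = 9.48e-09). The 13 named falling genes all had an interaction above 0 (0.06 to 1.00). It was called for TMEM71 (1.00), SMIM13 (0.72) and SOX11 (0.66), whose log2 fold change with both siRNAs was nearer to 0 than the sum. Without the block no interaction passed (0.00%; 353 genes at an unadjusted limma p below 0.05), while edgeR and DESeq2, with the block, called 117 and 132 genes (0.827% and 0.933%). Leaving out siCENPF+siFOXM1 library 1 or 2 left 67 calls each.

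The 3' UTR words differed in frequency between rising and falling genes. Of the 552 genes called higher with a searched 3' UTR 24.1% held AGCAACC, of the 521 called lower 4.61% and of all 11798 searched genes 7.97%. Falling genes had longer 3' UTRs than rising genes (medians of 1831 and 1664 bases, against 1389 over all genes), so sites are also given by length: 0.127 per 1000 bases in rising and 0.0217 in falling genes, against 0.0423 over all. LMLN held 11 such sites, 10 of them in a stretch of near-identical repeats. CDH10, IL1B, DDAH1, SRPR, C1QTNF6, EIF5A2, VWA9, FBXO33 and TMEM117 held 1 each, and H4C9, TMEM106A, HDAC1 and MICB held none. ITFG2 and SOX11, which fell, held it too.

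GTGTTTA stood in 33.2% of the falling, 16.1% of the rising and 17.7% of all searched genes, at 0.179, 0.0893 and 0.108 sites per 1000 bases. NEURL1B, THOC7 and SMIM13 held 1 site each, and CENPF held 2. TMEM71, ITFG2, CDKN3, CNTRL, KHSRP, MYH11, DPH1, SOX11 and FAM110A, which also fell, held none. Of the genes given here as higher with both siRNAs than with siFOXM1 alone, CHIC1, PREPL and YOD1 held 2 each, as did RMND5A, while IGFBP3 and TMEM71 held none. RMND5A, a subunit of the CTLH ubiquitin ligase, had log2 fold changes of -0.72 with both siRNAs and -1.08 with siFOXM1 over siNeg. AGCGCTA stood in 3.84% of the falling, 0.543% of the rising and 1.03% of all searched genes, OSTM1 and HIF1AN among them. HIF1AN held 1 AGCAACC and 4 GTGTTTA sites as well, in a 3' UTR of 11861 bases.

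Across all searched genes the shifts were small. The median log2 fold change of the 940 genes with AGCAACC was 0.05 with both siRNAs, 0.05 with siCENPF and 0.06 with siFOXM1, and -0.01 without the word with both siRNAs. Of those with the word 14.1% were called higher with both siRNAs, and of the 10858 without it 3.86%. The 2091 genes with GTGTTTA had medians of -0.03 with both siRNAs, -0.01 with siCENPF and -0.05 with siFOXM1. The median without that word was -0.0026 with both siRNAs. Of those with GTGTTTA 8.27% were called lower with both siRNAs, against 3.59% of those without. The 122 genes with AGCGCTA had medians of -0.05 with both siRNAs, -0.08 with siCENPF and 0.00 with siFOXM1, and those without it a median of -0.0075 with both siRNAs. In pair 3 the AGCGCTA genes did not lie lower, with a median of 0.00020 with the word and -0.0058 without. Of those with AGCGCTA 16.4% were called lower with both siRNAs, against 4.29% of those without. Whether any siRNA pairs with these words was not tested, and no test was made on words chosen from these data.

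**Figure D5:**
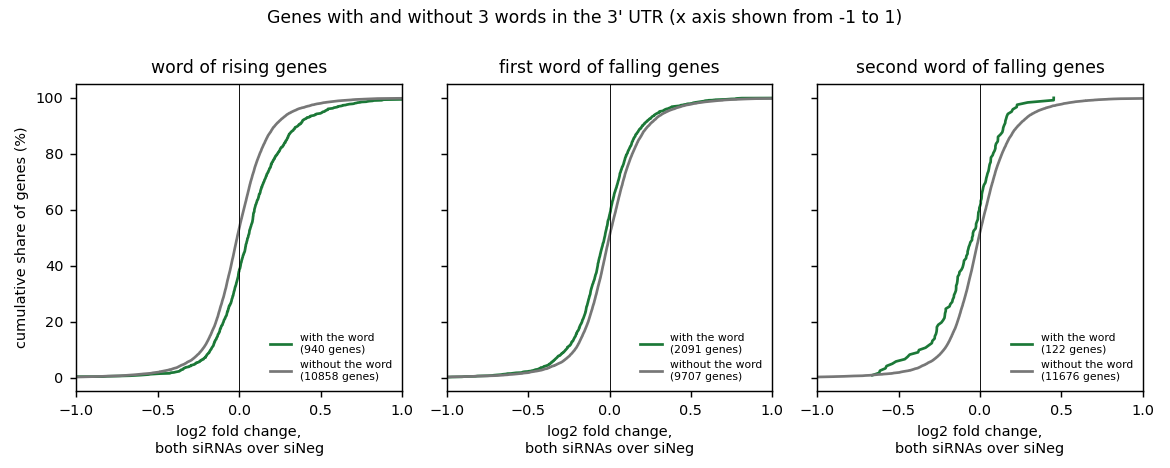
Cumulative share of genes (y axis, %) by log2 fold change of both siRNAs over siNeg (x axis, shown from -1 to 1) for genes with (green) and without (gray) each word in the 3' UTR, AGCAACC at left, GTGTTTA in the middle and AGCGCTA at right. Genes with the word of rising genes lie to the right of the rest (medians 0.05 and -0.01), and genes with either word of falling genes lie slightly to the left (medians -0.03 with and -0.0026 without GTGTTTA, -0.05 with and -0.0075 without AGCGCTA).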

How the data were processed

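PolyA RNA of hTERT-RPE1 cells was sequenced in 12 libraries, 3 for each of 4 siRNA treatments, of which 6 enter the main comparison. The submitters' processing notes name edgeR, TopHat, Trimmomatic and bcl2fastq, and the hg38 build, without versions. The authors' main table holds normalized counts, a signal on a count scale whose column sums run from 18504189 to 19762137. The authors also deposited FPKM per gene, and edgeR tables with CPM per library. Per the file headers these also give each gene's p-value, log2 fold change and the score of the likelihood ratio test. Of the 14862 genes measured there, 14202 took their symbol from the authors' tables, 601 from the reference annotation, and 59 had none.

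Reads were recovered from the deposited CPM, of which 100% were whole multiples of 1 read within 0.01. The files turned out to hold no raw counts, so limma (version 3.58.1, R 4.3.3), with trend and robust moderation, was fitted to log2(normalized count + 1) of all 12 libraries, with 4 group means and the replicate number as a block. The filter asked for 10 normalized counts or more in 3 libraries or more and kept 14857 genes. All tests were two-sided, adjusted by Benjamini-Hochberg over all genes, with a threshold of 0.05. Libraries with the same number deviated together from their group means (r = 0.303 to 0.551 across genes for the 3 pairs compared here, 0.272 to 0.639 over all 18 same-number pairs, and -0.510 to 0.0248 over 36 pairs with different numbers), which is a check made on these data since the labels do not say what a number stands for. edgeR (4.0.16) and DESeq2 (1.42.0) on recovered reads with the block, a fit without the block, FPKM (pseudocount 0.5), other pseudocounts, filters and scalings, and leaving out libraries were alternatives. The procedure was tested on simulated data.

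Named genes were the targets, the 15 highest and 13 further lowest log2 fold changes against siNeg past the threshold whose mean reached 100 normalized counts, with no overlap between groups and the same sign in 3 pairs, up to 5 per direction for the other comparisons, and up to 4 per list by adjusted p, with further called members added after their values were seen. Members and lists were chosen with earlier results of these data known. Promoters came from RefSeq (10533 genes matched) and 3' UTRs from GENCODE 29 (11798 genes). Some items that the rule names are not reported here.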

Additional observations from a re-analysis of the deposited data

Results flagged for a closer look

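The effect of siCENPF on cells that also received siFOXM1 was compared with its effect in cells without siFOXM1, by the interaction term of limma with the replicate block, over 3 libraries in each of the 4 groups. Genes are given here where that difference passed the threshold and the gene is named by the rule. Negative values mean that the log2 change with both siRNAs was below the sum of the changes with each siRNA alone.

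Among genes that rose, the interaction was -1.43 for LMLN (SE 0.21, limma adjusted p = 0.000219), -1.11 for HIST1H2BK (SE 0.18, limma adjusted p = 0.00119), -1.05 for DDAH1 (SE 0.08) and -1.02 for IL1B (SE 0.12, limma adjusted p = 1.44e-05). It was -0.97 for SRPR (SE 0.07), -0.90 for EIF5A2 (SE 0.11, limma adjusted p = 2.62e-05), -0.85 for MICB (SE 0.13, limma adjusted p = 0.000863), -0.74 for VWA9 (SE 0.10, limma adjusted p = 0.000184) and -0.70 for HDAC1 (SE 0.09, limma adjusted p = 4.38e-05). KIAA1467 (current symbol FAM234B) stood at -1.16 (SE 0.21, limma adjusted p = 0.00433).

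Among genes that were lower, the interaction was 1.00 for TMEM71 (SE 0.22, limma adjusted p = 0.0191), 0.72 for SMIM13 (SE 0.15, limma adjusted p = 0.0103), 0.66 for SOX11 (SE 0.14, limma adjusted p = 0.0191) and 0.70 for CENPF (SE 0.10, limma adjusted p = 0.00112). It was 0.72 for NECAP1 (SE 0.13, limma adjusted p = 0.00508) and 0.72 for FAM217B (SE 0.17, limma adjusted p = 0.0448). Without the block none of these passed.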

How the results depend on the processing

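Without the replicate block, the pairing being a check made on these data, 68 genes passed against siNeg (34 higher, 34 lower), with 12 list members, where 1174 and 109 passed with it. In the other comparisons 1 gene passed against siFOXM1, 12 against siCENPF and 0 in the interaction. With FPKM in place of normalized counts 591 genes passed against siNeg (305 higher, 286 lower), 65 of them list members, with 3 against siFOXM1, 51 against siCENPF and 13 in the interaction. Leaving out libraries gave 469 to 1104 calls against siNeg (244 to 624 higher, 225 to 512 lower), 59 to 118 list members, 12 to 65 calls against siFOXM1, 104 to 281 against siCENPF and 67 to 125 in the interaction. Of 172 genes named with a value against siNeg, 79 were no longer called without the block, 25 with FPKM, 2 with TMM rescaling and 1 with a pseudocount of 0.5; none changed side with a pseudocount of 5, with no filter or with median-of-ratios rescaling. KRT10 and PECAM1, neither called, changed sign with libraries left out, KRT10 between -0.0798 and 0.16 and PECAM1 between -0.51 and 0.41. The cause of these differences was not tested. Depth of 13671250 reads or more per library, over all 12, limits genes of low count most: the 14857 genes tested needed at least 10 normalized counts in 3 libraries.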
